A study of Mus musculus with 9 samples.

Results

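The 10 genes described here encode the 3 D-type cyclins (Ccnd1, Ccnd2 and Ccnd3), the 2 E-type cyclins (Ccne1 and Ccne2) and 5 inhibitors of cyclin-dependent kinases (CDK), namely p21 (Cdkn1a), p27 (Cdkn1b), p16 and p19Arf (Cdkn2a), p15 (Cdkn2b) and p18 (Cdkn2c). They were taken by gene symbol from a table of 55401 genes. Each symbol matched 1 row, and all 10 were among the 15717 genes that passed the filter on low counts. RNA was sequenced from whole livers of female FVB/N mice, which the strain field of the labels names as C57BL/6. Healthy livers (replicates 1, 2 and 3) came from mice that received neither plasmid nor virus, and no age at harvest is given for them. All mice were obtained at 6 weeks of age. HCC was produced by hydrodynamic tail vein injection, which delivers plasmids mainly to hepatocytes, of sleeping beauty transposon plasmids encoding myristoylated AKT and Nras-v12 (RAS/AKT). Untreated HCC livers (replicates 2, 3 and 4) received a blank AAV8 vector 1 week later, and miR-22-treated HCC livers (replicates 2, 3 and 4) received AAV8 expressing miR-22 from a CMV promoter. Both were harvested 5 weeks after the plasmids, 4 weeks after the virus. The comparison with healthy livers therefore carries the plasmids, the injection, the virus and the tumor together, and these cannot be told apart. In whole liver, fewer cells of a type and less RNA per cell cannot be told apart either.

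D-type cyclins bind CDK4 and CDK6 in G1, and E-type cyclins bind CDK2 at the start of S phase. Both kinases phosphorylate the retinoblastoma protein, which frees E2F factors to transcribe S-phase genes. The INK4 proteins p15, p16 and p18 block CDK4 and CDK6, whereas p21 and p27 act on a wider set of cyclin-CDK complexes. p19Arf, read from the Cdkn2a locus in another frame, stabilizes p53, and p53 induces Cdkn1a. Activated RAS is known to raise cyclin D1 and, in primary cells, to induce p16, p19Arf, p15 and p21 with an arrest called oncogene-induced senescence.

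Libraries of healthy livers held 18258660 to 20964551 counts, those of untreated HCC 18293676 to 23908392, and those of miR-22-treated HCC 16664659 to 20459853. The oncogene rows separated HCC from healthy livers. Normalized counts of Akt1 ranged from 2002 to 2105 without plasmids, from 22700 to 32450 in untreated tumors and from 13030 to 21420 in treated ones. Those of Nras ranged from 520.8 to 574.5, from 1228 to 1499 and from 1034 to 1073. The tissue carried the hepatocyte markers in every library. In CPM (counts scaled by library size) the 7 markers summed to 125000 to 131000 for healthy, 49200 to 61900 for untreated and 74700 to 91300 for miR-22-treated livers. Other markers also moved with the groups. The 8 stellate cell and fibroblast markers summed to 270 to 302, 900 to 1040 and 686 to 828 CPM in the same order. In untreated HCC 5 of the 8 were called higher, and Dcn (-0.61) and Lrat (-1.50) were called lower. The 6 cholangiocyte markers summed to 29.5 to 42.1, 3340 to 6260 and 1570 to 2710 CPM, and 5 of the 6 were called higher in untreated HCC than in healthy livers (all but Krt19). Spp1 alone made up nearly all of that sum, with a mean of 89639 normalized counts in untreated HCC against 1689 for Sox9, the next highest. The 8 macrophage markers summed to 372 to 460, 603 to 719 and 623 to 644 CPM, but 5 of the 8 were not called in untreated HCC, and Cd14 (mean 80.8 normalized counts in healthy livers and 3847 in untreated HCC) and Lyz2 (950 and 2628) made up most of the difference. The 6 neutrophil markers reached 1.76 to 4.4, 16 to 21.6 and 14.7 to 23.2 CPM, the 7 endothelial markers 341 to 424, 218 to 275 and 285 to 367 CPM, the 8 T and NK cell markers at most 9.89 CPM and the 5 B cell markers at most 6.1 CPM in any library. Of the endothelial markers, 3 were called lower in untreated HCC (Stab2, Clec4g and Kdr), 1 higher (Lyve1) and 3 were not called (Pecam1, Cdh5 and Vwf). No listed marker was at 0 in all 9 libraries. The part of these cell types in the values below was not tested.

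Compared with healthy livers, untreated HCC carried more mRNA of 6 of the 10 genes. The p53 target and CDK inhibitor Cdkn1a (log2 fold change 6.21), the INK4 genes Cdkn2b (6.49), Cdkn2a (5.04) and Cdkn2c (0.95), the E-type cyclin Ccne1 (2.76) and the D-type cyclin Ccnd2 (2.14) all rose. None fell, and Ccnd1, Ccnd3, Ccne2 and Cdkn1b were not called. A gene was called when it passed 0.05 for the adjusted p and a 1.5-fold difference, by edgeR's quasi-likelihood test with Benjamini-Hochberg adjustment over all tested genes. Among all tested genes, 22.7% were called higher and 17.9% lower in the same comparison. The values did not overlap between the groups for 8 of the 10 genes, against 65.3% of all tested genes. The median log2 fold change was 1.54 over the 10 genes and 0.012 over all tested genes.

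With miR-22 treatment, 5 of the 10 genes fell relative to untreated HCC and none rose. They were Ccnd1 (log2 fold change -0.99), Ccnd2 (-1.09), Cdkn1a (-0.93), Cdkn2a (-1.36) and Cdkn2b (-1.33). Cyclin genes and inhibitor genes were thus both among the genes that fell. Over all tested genes, 8.02% were called higher and 5.34% lower. The groups did not overlap for 9 of the 10 genes, against 39.3% of all tested genes, and the median log2 fold change was -0.75 over the 10 genes and 0.0020 over all tested genes. Both comparisons use the same 3 untreated HCC livers, so an error in these livers enters both with opposite sign. The count of 5 depended on single livers. It was 3 without replicate 2 or replicate 3 of untreated HCC or without replicate 3 of miR-22-treated HCC, where Cdkn1a and Cdkn2a were no longer called.

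Compared with healthy livers, miR-22-treated HCC still held more mRNA of 5 genes, Cdkn1a (log2 fold change 5.29), Cdkn2b (5.16), Cdkn2a (3.68), Ccne1 (2.19) and Ccnd2 (1.05). Ccnd1 was lower than in healthy livers (-0.67). Among all tested genes, 16.9% were called higher and 6.78% lower. The groups did not overlap for 7 of the 10 genes, against 48.8% of all tested genes, and the medians were 0.74 over the 10 genes and 0.022 over all tested genes.

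**Figure D1:**
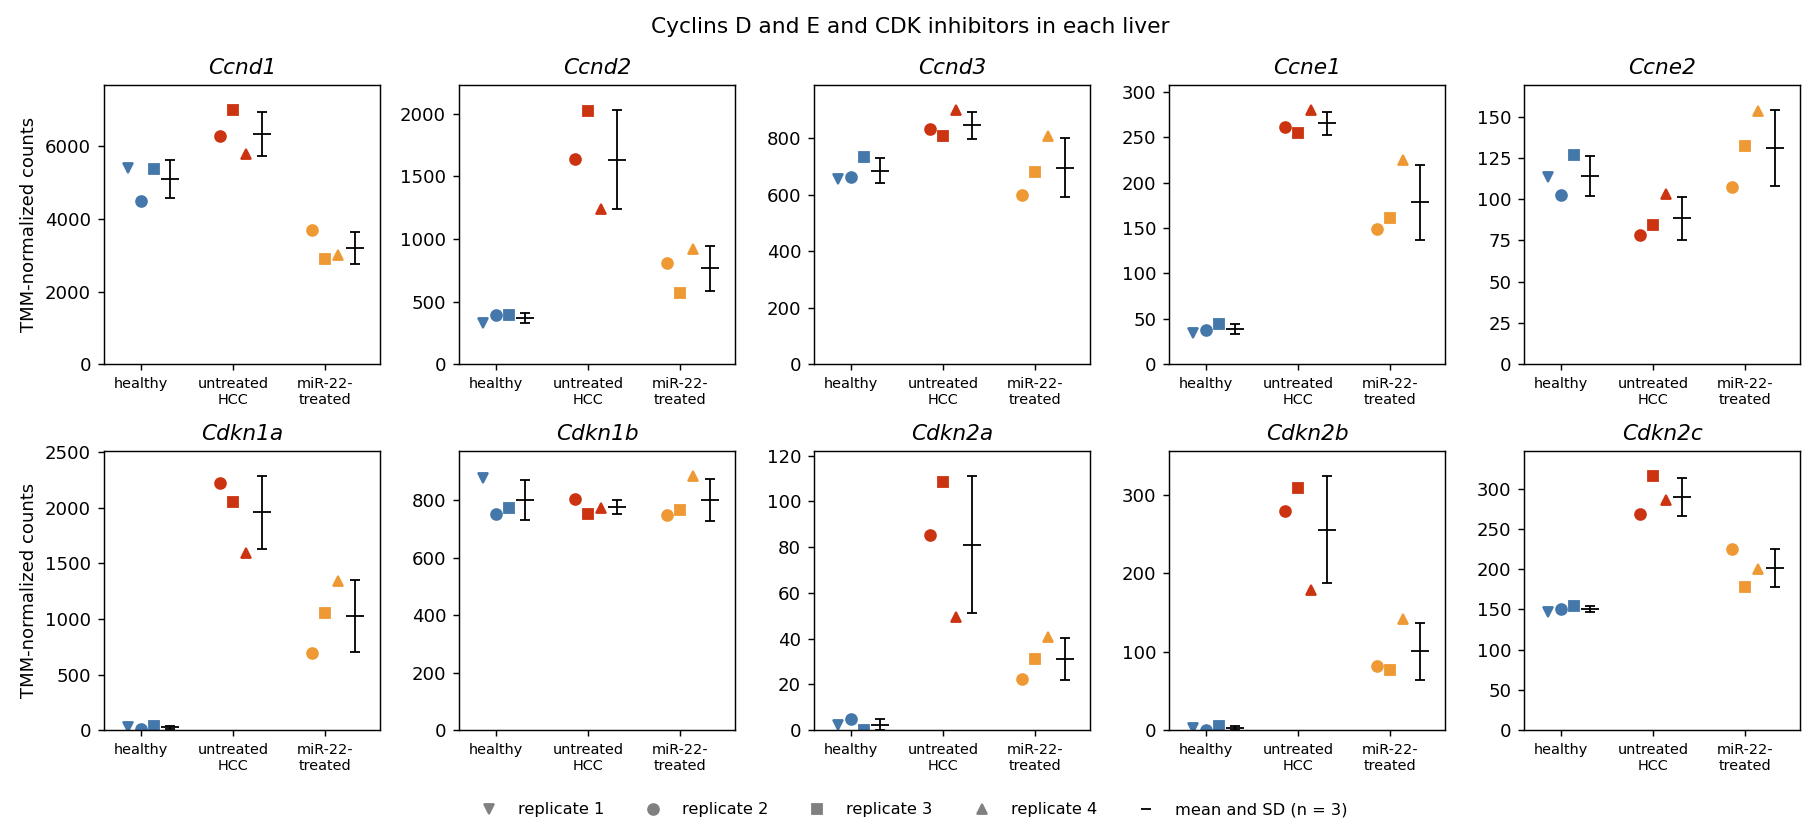
TMM-normalized counts (y axis, linear from 0, a separate scale for each gene) of the 10 genes in each of the 9 livers, grouped as healthy, untreated HCC and miR-22-treated HCC on the x axis. Each marker is 1 liver, its shape gives the replicate number of the labels, and the bar beside each group gives the mean and SD (n = 3). Cdkn1a, Cdkn2a and Cdkn2b lie close to 0 in every healthy liver, and Cdkn1b lies between 749 and 884.1 in all 9 livers.

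Among the D-type cyclins, Ccnd1, the cyclin best known for linking mitogens to G1, held 5416, 4504 and 5372 normalized counts in the 3 healthy livers, 6277, 6991 and 5788 in untreated HCC, and 3702, 2889 and 3001 in miR-22-treated HCC. A normalized count is a count scaled by TMM (trimmed mean of M values) to a library of average effective size. The untreated HCC livers were all above the healthy livers, and the miR-22-treated livers were below every liver of both other groups. The log2 fold change in untreated HCC was 0.32 ± 0.123 (± SE, adjusted p = 0.0397, 95% interval 0.0541 to 0.58), a 1.25-fold difference that was under the fold threshold. With miR-22, Ccnd1 fell by 0.99 ± 0.124 on the log2 scale relative to untreated HCC (adjusted p = 0.000163), which is 1.99-fold lower. It fell by 0.67 ± 0.124 relative to healthy livers (adjusted p = 0.000748), which is 1.59-fold lower. No other of the 10 genes was called lower in this last comparison.

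Ccnd1 lies at GRCm39 chr7:144483668-144493662 on the minus strand, and its neighbour LTO1 lies across it on the plus strand. Of the 31-base stretches in Ccnd1 transcripts, 60.7% also occur in transcripts of LTO1 in the reverse sense. The libraries were not strand-specific, so reads from the shared stretch cannot be told apart by strand. LTO1 held far fewer normalized counts than Ccnd1, ranging from 372.8 to 414.7 in the healthy group, from 430 to 471.1 in the untreated and from 312.9 to 413.4 in the treated group. Its log2 fold change was -0.35 with miR-22 (adjusted p = 0.0465), in the same direction as Ccnd1, and was under the fold threshold.

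Ccnd2, the second D-type cyclin, held 326.9, 394.8 and 389.1 normalized counts in healthy livers, 1640, 2022 and 1236 in untreated HCC, and 810, 570.4 and 920.1 in miR-22-treated HCC. The 3 groups did not overlap, with the miR-22-treated livers between the others. Ccnd2 rose 4.40-fold in untreated HCC (log2 fold change 2.14 ± 0.214, adjusted p = 1.65e-05). It fell 2.12-fold with miR-22 (-1.09 ± 0.204, adjusted p = 0.0048) and remained 2.07-fold above healthy livers (1.05 ± 0.213, adjusted p = 0.00374). Of its 31-base stretches, 13.9% occur in other annotated genes.

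Ccnd3 held 657.4, 663.7 and 735.5 normalized counts in healthy livers, 831.9, 807.9 and 899.4 in untreated HCC, and 599.2, 681.7 and 807.5 in miR-22-treated HCC. The untreated livers were all above the other 6 livers, but the miR-22-treated livers overlapped the healthy ones. The log2 fold changes were 0.30 ± 0.109 in untreated HCC (adjusted p = 0.0279, under the fold threshold) and -0.28 ± 0.109 with miR-22 (adjusted p = 0.0764). Of its 31-base stretches, 39.3% occur in other genes and 17.1% in Bysl on the other strand, a ribosome biogenesis gene that differed in the same directions (0.38 and -0.47), also under the fold threshold.

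Within the D-type cyclins, the balance was compared by the log2 ratio of normalized counts in each liver, which does not depend on scaling between libraries. With 3 livers against 3, the exact two-sided permutation test cannot give a p below 0.1, and 0.1 adjusts to 0.15 over the 18 ratio comparisons made here, so none of these comparisons could pass a threshold of 0.05. The log2 ratio of Ccnd1 to Ccnd2 was 3.78 ± 0.269 (SD) in healthy livers, 1.98 ± 0.223 in untreated HCC and 2.08 ± 0.332 in miR-22-treated HCC. Untreated HCC had the lower ratio, without overlap with healthy livers (exact p = 0.1), and both HCC groups overlapped (exact p = 0.8). The log2 ratio of Ccnd1 to Ccnd3 was 2.89 ± 0.141, 2.90 ± 0.214 and 2.20 ± 0.38 in the same order, and the miR-22-treated livers did not overlap either other group (exact p = 0.1 for both).

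On a per-length scale (counts per kilobase of the canonical transcript, scaled by library size as CPM), which allows levels of different genes to be compared, Ccnd1 led the D-type cyclins in every liver. Its level was 69.2 ± 6.98 (SD) in healthy livers, 86.2 ± 8.21 in untreated HCC and 43.4 ± 5.98 in miR-22-treated HCC. It made up 77.1% ± 1.95 (SD, n = 3) of the summed D-type level in healthy livers, 71.1% ± 0.748 in untreated HCC and 64.3% ± 5.24 in miR-22-treated HCC. The leading share of Ccnd1 was lower in both HCC groups than in every healthy liver. The share of Ccnd2 was 3.38% ± 0.547, 10.9% ± 1.74 and 9.2% ± 1.65, and that of Ccnd3 was 19.6% ± 1.41, 18% ± 2.48 and 26.5% ± 4.67. The summed D-type level was 89.7 ± 7.35 in healthy livers, 121 ± 10.3 in untreated HCC and 67.4 ± 5.58 in miR-22-treated HCC. The miR-22-treated livers thus held less D-type cyclin mRNA in sum (61.3 to 72.2) than any healthy liver (81.3 to 94.9), while Ccnd2 stayed above its healthy level.

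Among the E-type cyclins, Ccne1 rose in untreated HCC and Ccne2 was not called in any comparison. Ccne1 held 34.15, 37.89 and 44.77 normalized counts in healthy livers, 261.8, 254.5 and 279.7 in untreated HCC, and 148.7, 160.8 and 225.2 in miR-22-treated HCC. The 3 groups did not overlap, and the treated livers lay between the others. The rise in untreated HCC was 6.77-fold (log2 fold change 2.76 ± 0.2, adjusted p = 6.49e-08). With miR-22 the log2 fold change was -0.57 ± 0.172 (adjusted p = 0.0272, 95% interval -0.937 to -0.201), a 1.48-fold lower level that just missed the fold threshold. It was past both thresholds with DESeq2 (-0.59, adjusted p = 0.0114) and without replicate 4 of miR-22-treated HCC (-0.78, adjusted p = 0.0039). Without any other single liver of either HCC group the adjusted p was 0.0633 to 0.111, and the log2 fold change was as small as -0.46 without treated replicate 2. Ccne1 remained 4.57-fold above healthy livers after treatment (2.19 ± 0.203, adjusted p = 2.02e-06).

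Ccne2, the second E-type cyclin and an E2F target itself, held 113.4, 102.7 and 126.8 normalized counts in healthy livers, 78.19, 84.27 and 102.9 in untreated HCC, and 107.6, 132.4 and 153.2 in miR-22-treated HCC. Its direction was opposite to that of Ccne1 in both comparisons, and the untreated livers overlapped the healthy ones by a single liver. The log2 fold change was -0.37 ± 0.198 in untreated HCC (adjusted p = 0.129, 95% interval -0.792 to 0.0562). With miR-22 it was 0.57 ± 0.196 (adjusted p = 0.0492, 95% interval 0.146 to 0.985), a 1.48-fold higher level under the fold threshold. Of its 31-base stretches, 14.3% occur in Ints8 on the other strand.

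The log2 ratio of Ccne1 to Ccne2 separated all 3 groups. It was -1.55 ± 0.153 (SD) in healthy livers, 1.59 ± 0.149 in untreated HCC and 0.433 ± 0.14 in miR-22-treated HCC, and the values did not overlap in any of the 3 comparisons (exact two-sided permutation p = 0.1 for each, the smallest the design allows). Per length, Ccne1 made up 46% ± 2.65 of the E-type sum in healthy livers, 88.3% ± 1.08 in untreated HCC and 77.2% ± 1.72 in miR-22-treated HCC. These shares depend on the transcript length taken for Ccne2, which is 5207 bases for the canonical transcript and 3177 for the longest manually curated one. With the latter they were 34.2%, 82.2% and 67.4%, in the same order of groups. The E-type sum was 2.10 ± 0.233 in healthy livers, 7.46 ± 0.437 in untreated HCC and 5.72 ± 1.23 in miR-22-treated HCC, far below the D-type sum in each group.

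**Figure D2:**
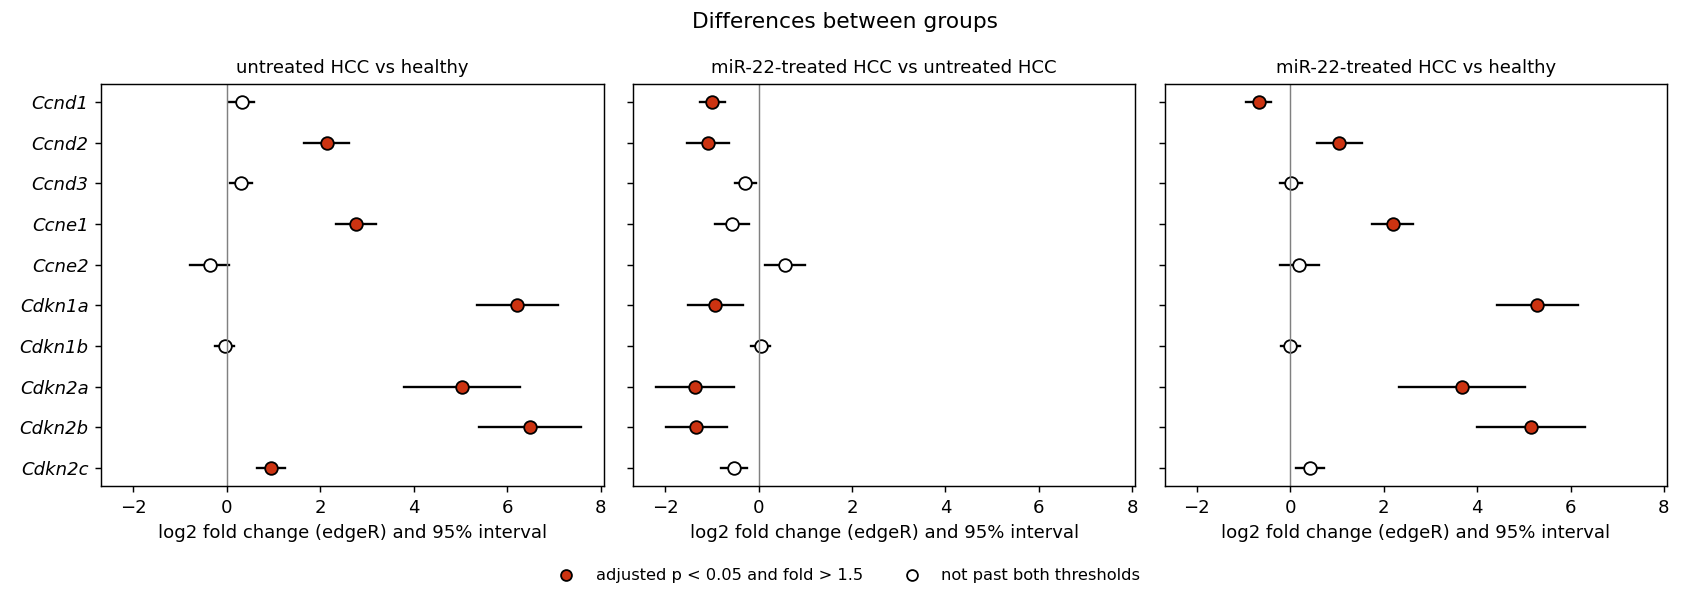
Log2 fold change (x axis) of each gene (y axis) in the 3 comparisons, with its 95% interval from edgeR. Filled points passed both thresholds (adjusted p under 0.05 and fold over 1.5) and open points did not. The left panel has 6 filled points, all above 0, the middle panel has 5, all below 0, and the right panel has 5 above 0 and Ccnd1 below 0.

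Among the inhibitors of the Cip/Kip family, Cdkn1a rose in untreated HCC and Cdkn1b was not called in any comparison. Cdkn1a encodes p21, the main p53-induced CDK inhibitor. It held 28.05, 13.45 and 36.24 normalized counts in healthy livers, 2226, 2055 and 1597 in untreated HCC, and 693.5, 1054 and 1340 in miR-22-treated HCC. The 3 groups did not overlap, although replicate 4 of the untreated and replicate 4 of the treated livers stood close together. Cdkn1a rose 74.1-fold in untreated HCC (log2 fold change 6.21 ± 0.374, adjusted p = 2.42e-06). It fell 1.90-fold with miR-22 (-0.93 ± 0.258, adjusted p = 0.0351) and remained 39.0-fold above healthy livers (5.29 ± 0.374, adjusted p = 1.94e-05). The fall with miR-22 was near the threshold. It was no longer called when no filter on low counts was used (adjusted p = 0.0978), without healthy replicate 1 (0.0571), without untreated replicate 2 (0.104) or 3 (0.115), or without treated replicate 3 (0.119), although its direction was the same each time. Of its 31-base stretches, 9.72% occur in other genes.

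Cdkn1a was also the gene, alone among the 10, with a match to the miR-22 seed of 7 bases in the 3′ UTR of its canonical transcript. The mature miRNA is shown (RefSeq, GRCm38.p6 chr11:75463772-75463793, plus strand) with its seed, bases 2 to 8, in capitals, and the Cdkn1a window is shown (GRCm39 chr17:29319192-29319221, plus strand, in the 3′ UTR) with the matching letters in capitals:
mmu-miR-22-3p: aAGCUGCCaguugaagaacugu
Cdkn1a 3′ UTR: ggtcttaccttaGGCAGCTccagtggcaac
The match starts at base 837 of a 3′ UTR of 1334 bases. The same 7 letters, GGCAGCT, occur in 2929 of 20876 canonical 3′ UTRs (14%), so a match by itself is common, and the other 4 genes that fell with miR-22 (Ccnd1, Ccnd2, Cdkn2a and Cdkn2b) have none. The last 6 of these letters, GCAGCT, occur once in Ccnd2 and Ccne1 and 2 times in Cdkn2b. A match is a description of the sequence, and binding of miR-22 was not measured in these libraries.

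Cdkn1b, which encodes p27 and is controlled in large part by protein turnover, had the smallest log2 fold change of the 10 genes in each comparison. It held 879.4, 751.8 and 772.8 normalized counts in healthy livers, 804.6, 754.1 and 774 in untreated HCC, and 749, 768.3 and 884.1 in miR-22-treated HCC. The groups overlapped in each comparison. The log2 fold change was -0.043 ± 0.0957 in untreated HCC (adjusted p = 0.724, 95% interval -0.248 to 0.162) and 0.043 ± 0.0955 with miR-22 (adjusted p = 0.789, 95% interval -0.161 to 0.248). Both intervals lie within the fold threshold of 1.5 in either direction. The log2 ratio of Cdkn1a to Cdkn1b was -5.03 ± 0.683 (SD) in healthy livers, 1.32 ± 0.238 in untreated HCC and 0.315 ± 0.376 in miR-22-treated HCC, with no overlap in any comparison (exact two-sided permutation p = 0.1 for each).

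Among the INK4 genes, Cdkn2a and Cdkn2b were almost silent in healthy livers and present in every HCC liver. Cdkn2a, counted over its p16 and p19Arf transcripts together, had 2, 4 and 0 raw counts in healthy livers. It held 85.46, 108.6 and 49.28 normalized counts in untreated HCC and 22.19, 30.93 and 40.61 in miR-22-treated HCC. The treated livers were below the untreated ones, although untreated replicate 4 and treated replicate 4 differed little. Pooled over the livers, untreated HCC had 287 raw counts against 6 in healthy livers, a depth-corrected ratio of 33.9 (95% interval 15.4 to 93.3, counting error only). The fitted log2 fold change was 5.04 ± 0.58 (adjusted p = 4.58e-06), and with so few healthy counts its size depends on the prior count of the fit. It ranged from 4.41 to 5.99 over the alternative settings listed below. With miR-22, Cdkn2a fell 2.56-fold (-1.36 ± 0.393, adjusted p = 0.0222). This call was lost without untreated replicate 2 (adjusted p = 0.0745) or 3 (0.124) and without treated replicate 2 (0.08) or 3 (0.0747). The treated livers still had 89 raw counts, a ratio of 13.7 to healthy livers (95% interval 6.04 to 38.3).

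Cdkn2b, which encodes p15 and lies next to Cdkn2a, had 2, 0 and 5 raw counts in healthy livers. It held 279.1, 308.4 and 179 normalized counts in untreated HCC and 82.11, 76.71 and 142.1 in miR-22-treated HCC. As with Cdkn2a and Cdkn1a, replicate 4 was the lowest of the untreated and the highest of the treated livers. Untreated HCC had 909 raw counts against 7 in healthy livers, a depth-corrected ratio of 92.1 (95% interval 44.5 to 230, counting error only), and the fitted log2 fold change was 6.49 ± 0.501 (adjusted p = 3.6e-07). Over the alternative settings listed below, this fold change ranged from 5.95 to 7.56. With miR-22, Cdkn2b fell 2.52-fold (-1.33 ± 0.304, adjusted p = 0.00785). The ratio of treated to healthy livers was 38.2 (95% interval 18.3 to 95.9).

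Both genes are on the minus strand of chromosome 4 (GRCm39 chr4:89192708-89212890 for Cdkn2a and chr4:89223204-89229276 for Cdkn2b) and share no 31-base stretch with each other. Their log2 ratio, Cdkn2a to Cdkn2b, was -1.68 ± 0.175 (SD) in untreated HCC and -1.65 ± 0.31 in miR-22-treated HCC (exact two-sided permutation p = 0.9), a difference of 0.033 that is smaller than the spread between livers. Per length, their levels were close, with 4.91 ± 1.81 for Cdkn2a and 4.84 ± 1.28 for Cdkn2b in untreated HCC, and 1.89 ± 0.557 and 1.90 ± 0.688 in miR-22-treated HCC. The ratio in healthy livers rests on too few counts to be read.

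Cdkn2c, which encodes p18, was well expressed in healthy livers and rose less. It held 146.4, 150.4 and 154.6 normalized counts in healthy livers, 268.2, 315.3 and 286.3 in untreated HCC, and 225.3, 178.2 and 200.3 in miR-22-treated HCC. The 3 groups did not overlap, and the healthy livers lay within a narrow range. Cdkn2c rose 1.93-fold in untreated HCC (log2 fold change 0.95 ± 0.137, adjusted p = 3.87e-05). With miR-22 its log2 fold change was -0.53 ± 0.134 (adjusted p = 0.0114, 95% interval -0.812 to -0.24), a 1.44-fold lower level under the fold threshold, and the treated livers were 1.34-fold above healthy ones (0.42 ± 0.14, adjusted p = 0.0295), also under it.

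The sequence around the start sites was searched on both strands, from 250 bases before to 50 bases after each start (RefSeq, GRCm38.p6), for 4 motifs. Of the 10 genes, 7 matched the promoter table, with 11 promoters. Ccnd1, Ccnd2 and Ccne2 had no entry and were not searched. The letters were TTTCCCGC, TTTGGCGC, TTTGCCGC or TTTCGCGC for E2F, TGACGTCA for the cyclic AMP response element (CRE), CACGTG for the E-box bound by Myc and related factors, and TGACTCA for AP-1. Matches occurred in just 3 of the 11 promoters, those of INK4 genes, each for a different motif. All 3 of these genes were lower with miR-22, with Cdkn2c under the fold threshold. The matches are shown with the matched letters in capitals:
Cdkn2a, upstream promoter: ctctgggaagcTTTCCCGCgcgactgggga
Cdkn2b: tatttgtctcaTGACGTCAccaagtgtggg
Cdkn2c, downstream promoter: tgctgaataatCACGTGtgaatcgagg
The Cdkn2a window, with E2F letters 99 bases before the start, is at chr4:89294700-89294729, the Cdkn2b window, with CRE letters 46 bases before the start, is at chr4:89311060-89311089, and the Cdkn2c window, with E-box letters 34 bases after it, is at chr4:109665323-109665349, all on the minus strand. Among 32851 mouse promoters of this length, 2.26% held the E2F letters, 1.79% the CRE, 7.15% the E-box and 5.2% the AP-1 letters. The other 8 promoters held none of the 4 motifs, and no factor's binding was measured.

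Cdkn1b led the summed inhibitor mRNA in healthy livers, and Cdkn1a led it in every HCC liver. Per length, the 5 inhibitors summed to 12.8 ± 0.831 (SD, n = 3) in healthy livers, 76.6 ± 11.5 in untreated HCC and 44.3 ± 10.3 in miR-22-treated HCC, with no overlap between the groups (12 to 13.7, 63.4 to 84.4 and 34.3 to 54.9). In healthy livers Cdkn1b made up 70.6% ± 2.1 of this sum and Cdkn2c 22.5% ± 1.81, and Cdkn1a made up 5.36% ± 2.31. In untreated HCC Cdkn1a made up 68.5% ± 1.98 and Cdkn1b 11.7% ± 1.87. In miR-22-treated HCC the shares were 61.4% ± 6.25 and 21% ± 3.38. Cdkn2a and Cdkn2b together stayed a minor part, with means of 6.28% and 6.24% in untreated HCC and 4.22% and 4.25% in miR-22-treated HCC.

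**Figure D3:**
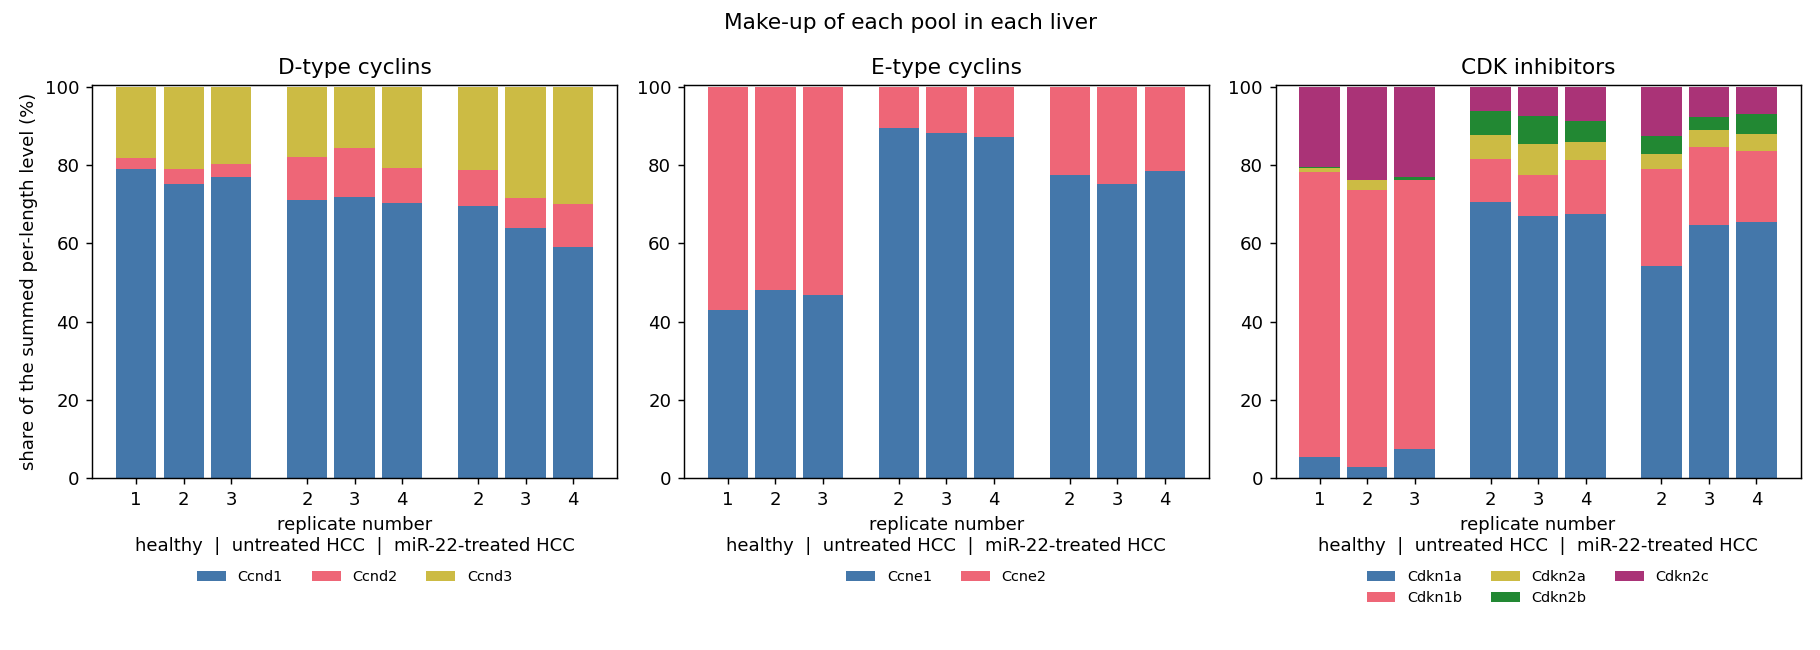
Share (%, y axis) of each gene in the summed per-length level of the D-type cyclins, the E-type cyclins and the CDK inhibitors, with 1 stacked bar for each liver (x axis, replicate number within healthy, untreated HCC and miR-22-treated HCC). Ccne1 takes 43% to 48% of the E-type sum in healthy livers and 87.2% to 89.4% in untreated HCC, and Cdkn1a takes 2.99% to 7.6% of the inhibitor sum in healthy livers and 67.1% to 70.7% in untreated HCC.

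The order of the 10 genes by per-length level also differed between groups. In healthy livers Ccnd1 was followed by Ccnd3 (17.5 ± 1.11), Cdkn1b (9.07 ± 0.775), Ccnd2 (3.01 ± 0.307), Cdkn2c (2.88 ± 0.0784), Ccne2 (1.13 ± 0.12), Ccne1 (0.966 ± 0.134) and Cdkn1a (0.695 ± 0.31), with Cdkn2a and Cdkn2b last. Ccnd2 and Cdkn2c overlapped there, as did Ccne2 and Ccne1, and Ccne1 and Cdkn1a. In untreated HCC, Cdkn1a was second (52.5 ± 8.71), above Ccnd3 in every liver, Ccne1 (6.58 ± 0.322) stood just above Cdkn2c (5.54 ± 0.455), and Ccne2 was last (0.876 ± 0.128). In miR-22-treated HCC, Cdkn1a (27.6 ± 8.68) was second by its mean and overlapped Ccnd3 (17.8 ± 2.68), and Ccne2 was again last (1.3 ± 0.226), overlapping Cdkn2a and Cdkn2b. The rank of Ccne2 depends on its transcript length. With the longest curated transcripts, the mean of Ccne2 in miR-22-treated HCC (2.13) was above those of Cdkn2b (1.9) and Cdkn2a (1.8), but the livers overlapped. In healthy livers, with the same lengths, Ccne2 (1.67 to 2.06), Ccne1 (0.847 to 1.11) and Cdkn1a (0.298 to 0.804) did not overlap.

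Cdkn1a and Ccnd1, the inhibitor and the cyclin with the highest per-length levels in HCC, were also compared with each other. The log2 ratio of their normalized counts was -7.70 ± 0.583 (SD) in healthy livers, -1.71 ± 0.188 in untreated HCC and -1.68 ± 0.655 in miR-22-treated HCC. Both HCC groups were above the healthy livers without overlap (exact two-sided permutation p = 0.1), and they overlapped each other (exact p = 0.9). The mean ratio of p21 to cyclin D1 mRNA thus differed by 0.029 between treated and untreated HCC, less than its spread over livers, although both genes were lower with treatment. Over the 18 ratio comparisons, 12 had no overlap between the groups. No share for other pairs of genes was computed, and the ratios use the same counts as the single genes above.

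Livers of the same group differed from each other in a pattern that ran across several of the genes. Among the miR-22-treated livers, replicate 4 was the highest for 8 of the 10 genes (all but Ccnd1 and Cdkn2c) and replicate 2 the lowest for 6. The same count was not made over all tested genes, so whether this is particular to the 10 genes cannot be said. Among the untreated livers, replicate 4 was the lowest for Ccnd1, Ccnd2, Cdkn1a, Cdkn2a and Cdkn2b. That liver was the highest of its group for Ccnd3, Ccne1 and Ccne2. Akt1 held 22700 normalized counts in untreated replicate 4 against 31320 and 32450 in the others, and 21420 in treated replicate 4 against 15470 in replicate 2 and 13030 in replicate 3. The part of the oncogene level in the differences among livers was not tested.

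The other genes of the pathway were described by 8 lists with 134 genes, of which 130 were tested. For comparison, 22.7% of all tested genes were called higher and 17.9% lower in untreated HCC. With miR-22 these shares were 8.02% and 5.34%. Among the CDK partners, E2F factors and pocket proteins (23 genes), 10 were higher in untreated HCC (43.5%) and 2 were lower (8.7%), relative to healthy livers. The partners of D-type cyclins both rose, with log2 fold changes of 1.23 for Cdk6 (adjusted p = 5.34e-08) and 1.06 for Cdk4 (adjusted p = 3.84e-06), whereas Cdk2, the partner of E-type cyclins, was at 0.22 (adjusted p = 0.144) and Rb1, the retinoblastoma gene, at 0.14 (adjusted p = 0.431). The phosphatase gene Cdc25a, which activates CDK2, rose (1.72), as did E2f1 (1.56) and E2f2 (2.09). Rbl2, the pocket protein p130 of resting cells, fell by 1.19 (adjusted p = 5.38e-06). With miR-22, 2 of the 23 genes were higher and 1 lower (8.7% and 4.35%), near the shares of all tested genes. Rbl2 rose (0.82, adjusted p = 0.00104) and E2f2 fell (-0.96, adjusted p = 0.00169), while Cdk6 (-0.49) and Cdk4 (-0.48) were under the fold threshold and E2f1 was at -0.28 (adjusted p = 0.368). The median of the list was 0.54 in HCC and -0.17 with miR-22.

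The remaining CDK inhibitor genes (3 genes) included 1 that was called, Cdkn3, a phosphatase gene of dividing cells, which rose by 4.23 in untreated HCC (adjusted p = 6.18e-06) and was at -0.96 with miR-22 (adjusted p = 0.0691). Cdkn1c, which encodes p57, was at -0.33 (adjusted p = 0.205), and Cdkn2d, which encodes p19 of the INK4 family, at 0.080 (adjusted p = 0.802).

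Of the 20 E2F-driven S-phase genes, 16 were higher (80%) and 1 lower (5%) in untreated HCC (median log2 fold change 1.24). With miR-22, 1 was higher and 1 lower (5% each, median -0.11), near or under the shares of all tested genes (8.02% and 5.34%). Ccna2, the S-phase cyclin, rose by 4.72 (adjusted p = 3.37e-09) and fell by 0.60 with miR-22 (adjusted p = 0.0198). Rrm2, a subunit of ribonucleotide reductase, rose by 2.70 (adjusted p = 2.01e-08) and was at -0.00076 with miR-22 (adjusted p = 0.998). Tyms, thymidylate synthase, was at -0.56 with miR-22 (adjusted p = 0.0131), under the fold threshold. Tk1, thymidine kinase, went the other way, lower in HCC (-2.19, adjusted p = 1.03e-08) and higher with miR-22 (1.17, adjusted p = 5.69e-05).

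All 12 mitotic proliferation markers were higher in untreated HCC (median 4.27), and 7 of the 12 fell with miR-22 (median -0.69). Cdc20, an activator of the anaphase-promoting complex, rose by 4.41 (adjusted p = 5.09e-09) and fell by 1.19 with treatment (adjusted p = 0.000571). Mki67, which encodes Ki67, rose by 3.67 (adjusted p = 5.5e-09) and fell by 0.64 (adjusted p = 0.00702). The mitotic cyclin gene Ccnb1 rose by 5.25 (adjusted p = 4.12e-08), and Ccnb2 fell by 0.98 with miR-22 (adjusted p = 0.00861). In miR-22-treated HCC all 12 were still higher than in healthy livers (median 3.42). Untreated HCC livers held more p21, p15 and p16/p19Arf mRNA than healthy livers, and more mRNA of most S-phase genes and all 12 mitotic markers. Both changes were found in the same RNA sample, and whether the same cells held both was not measured. Per length, p15 and p16/p19Arf mRNA stayed a minor part of the inhibitor sum, as given above.

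**Figure D4:**
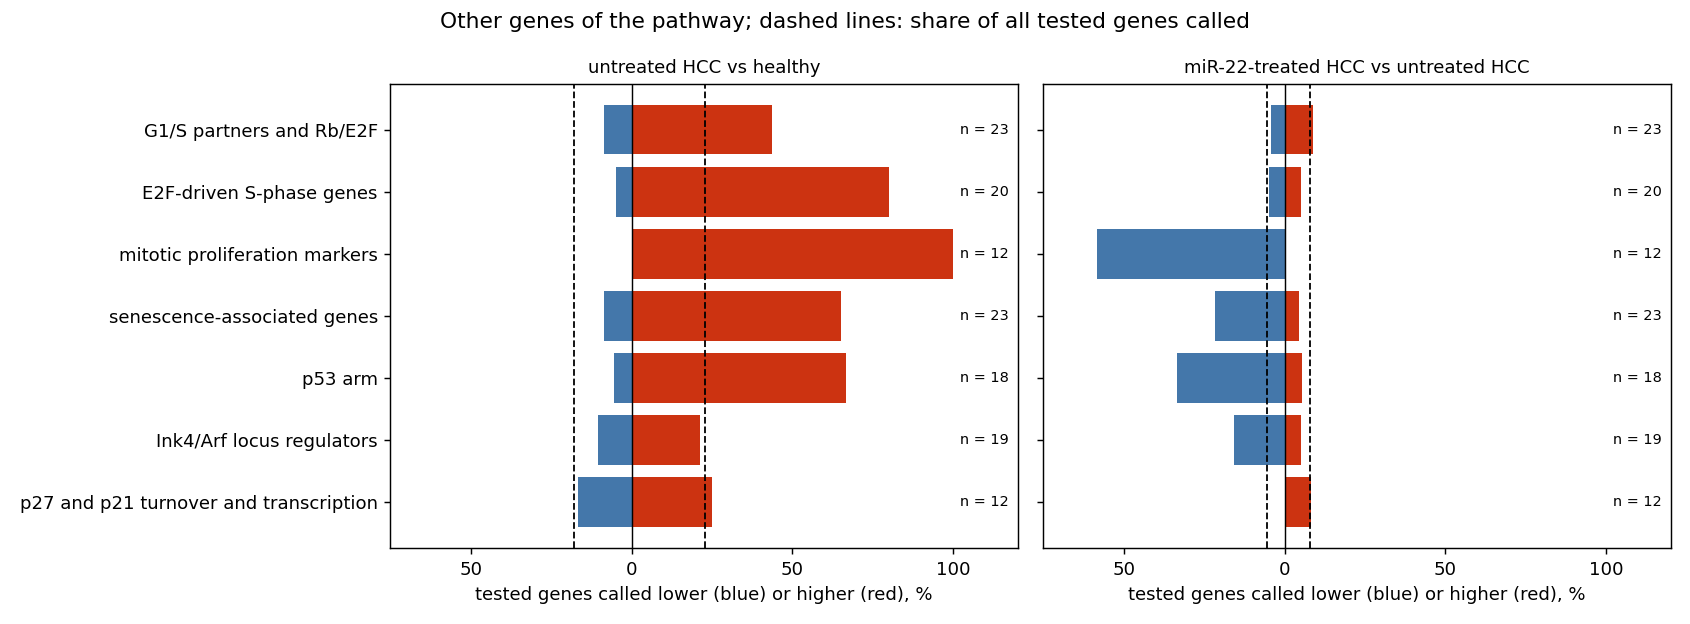
Share (%, x axis) of the tested genes of 7 pathway lists (y axis, n to the right) that were called higher (red, to the right of 0) or lower (blue, to the left of 0), in untreated HCC against healthy livers and in miR-22-treated against untreated HCC. Dashed lines give the share of all tested genes called, 22.7% higher and 17.9% lower on the left, and 8.02% higher and 5.34% lower on the right. The mitotic markers reach 100% higher in HCC and 58.3% lower with miR-22.

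Of 23 tested senescence-associated genes, 15 were higher and 2 lower in untreated HCC (median 1.14), and 1 was higher and 5 lower with miR-22 (median -0.27). Timp1, a metalloproteinase inhibitor, rose by 5.79 (adjusted p = 3.14e-08) and fell by 1.26 with miR-22 (adjusted p = 0.00256). Icam1, an adhesion molecule, rose by 2.27 (adjusted p = 1.63e-08) and fell by 0.81 (adjusted p = 0.000794), whereas the macrophage elastase gene Mmp12 rose by 4.37 (adjusted p = 4.41e-09) and was at 0.087 with miR-22 (adjusted p = 0.739). The 2 genes called lower in untreated HCC were Igfbp5 (-1.735, adjusted p = 9.96e-05) and Dpp4, a surface peptidase (-1.11, adjusted p = 1.36e-05). Dpp4 rose with miR-22 (0.71, adjusted p = 0.00294). Lmnb1, the lamin B1 gene that is typically lower in senescent cells, was higher in untreated HCC (0.91, adjusted p = 0.000388) and is counted among the 15. Lmnb1 and Igfbp5 lie outside the rule for named genes and were chosen after their values were seen. Several genes of this list are also expressed by stromal or immune cells, whose markers moved as given above.

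Of 18 genes of the p53 arm, 12 were higher and 1 lower in untreated HCC (median 1.21), and 1 was higher and 6 lower with miR-22 (median -0.36). Trp53 itself rose by 1.23 (adjusted p = 2.32e-06) and fell by 0.59 with miR-22 (adjusted p = 0.00475). The p53 targets Eda2r (5.50, adjusted p = 7.52e-09), Zmat3 (1.94, adjusted p = 6.71e-08) and the apoptosis gene Bax (1.64, adjusted p = 2.13e-07) rose as Cdkn1a did. With miR-22, Zmat3 fell by 0.72 (adjusted p = 0.00183) and Aen by 0.64 (adjusted p = 0.00135), and the stress kinase gene Plk3 rose (1.23, adjusted p = 0.000142).

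Of 19 tested regulators of the Ink4/Arf locus, mostly Polycomb genes, 4 were higher and 2 lower in untreated HCC (median 0.14), shares of 21.1% and 10.5% that are near or under those of all tested genes. Ets2, a RAS-responsive activator of Cdkn2a, rose by 1.57 (adjusted p = 7.14e-07) and fell by 0.72 with miR-22 (adjusted p = 0.00235). The Polycomb genes Rnf2 (0.99, adjusted p = 2.95e-06) and Ezh2 (0.95, adjusted p = 2.99e-05), were higher in untreated HCC, while the 2 genes called lower, Cbx7 (-1.46, adjusted p = 5.89e-05) and Cbx2 (-1.20, adjusted p = 0.000136), also belong to the Polycomb group, which is known to silence the locus. Cbx7 and Cbx2 were chosen after their values were seen, and Cbx7 rose with miR-22 (0.74, adjusted p = 0.0277). Rnf2 was at -0.42 with miR-22 (adjusted p = 0.0105), under the fold threshold. With miR-22, 1 gene of the list was higher (5.26%) and 3 were lower (15.8%), against 8.02% and 5.34% of all tested genes. Of 12 tested genes for p27 and p21 turnover and transcription, 3 were higher and 2 lower in untreated HCC (25% and 16.7%), and 1 rose with miR-22 (8.33%), all near the shares of all tested genes. Klf6, a transcription factor that can activate Cdkn1a, rose by 1.68 (adjusted p = 3.68e-07), and Cul4a, a scaffold of ubiquitin ligases, fell by 0.78 (adjusted p = 1.71e-05). With miR-22, Ddb1 was at -0.27 (adjusted p = 0.059) and Foxo1 at 0.99 (adjusted p = 0.0814). The gene that rose with miR-22 was Foxo3, a transcription factor of the AKT pathway and activator of Cdkn1b, which fell by 1.03 in untreated HCC (adjusted p = 6.86e-05) and rose by 0.95 with miR-22 (adjusted p = 0.000964), while Cdkn1b was not called.

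The genes whose pattern over the 9 libraries was most like that of Cdkn1a were Slpi, Ifi27l2b and Gipc2, with root mean square differences of 0.297, 0.323 and 0.33 in log2 CPM centred on the healthy mean. Each was higher in untreated HCC by a similar amount (6.01, 6.05 and 6.43) and lower with miR-22 (-0.77, -0.36 and -0.56). Genes most like Ccnd1 included 1700088E04Rik (0.175) and Lratd2 (0.202), whose log2 differences with miR-22 were -1.08 and -0.73.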

How the data were processed

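Whole-liver RNA from 9 mice was analysed, 3 in each group. Libraries were non-directional (NEBNext Ultra II) and read as pairs on a NovaSeq. According to the methods and processing notes, the authors checked reads with FastQC 0.11.7, quantified them with Salmon on GRCm39 and imported gene-level counts with tximport. The deposited counts are whole numbers, not normalized, for 55401 genes. A second deposited table, normalized by the authors, was not used. The members and gene lists were chosen with earlier results of these data known.

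The tests used the robust quasi-likelihood F test of edgeR 4.0.16 under R 4.3.3, two-sided, after TMM and filterByExpr, with all 9 libraries in 1 fit, no covariates and Benjamini-Hochberg adjustment over 15717 genes. The thresholds, an adjusted p under 0.05 and a fold over 1.5, follow the methods of the study. Normalized counts are scaled to the mean effective library size of 19401057 counts. Errors are SD over 3 livers, or SE of a log2 fold change. Ratios used a pseudocount of 0.5. Intervals for few counts are exact and cover counting error only. Replicates are separate livers, and no 2 libraries of the same group agreed within sampling noise.

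All 10 members were named. From each of 8 pathway lists (134 genes, of which Skp1 was not found, and Il6, Mmp3 and Twist1 did not pass the filter), the 3 genes with the smallest p in untreated HCC against healthy livers and in miR-22-treated against untreated HCC were named, with Mki67, Ccna2, E2f1, Cdk4, Cdk6, Cdk2, Rb1 and Trp53. Some genes that this rule selects are not reported here. Lists are described by counts and medians. Transcript lengths, shared 31-base stretches and 3′ UTRs came from a GENCODE annotation of GRCm39 newer than the one the authors state, and miRNA and promoter sequences from RefSeq tables of GRCm38.p6. No coordinates were converted. Scripts ran in Python 3.11.15 with matplotlib 3.10.9.

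The alternatives were DESeq2 1.42.0, its size factors, upper-quartile normalization, no filter, at least 10 counts in every library, the replicate number as a block, a fit to just the compared groups, no fold threshold, each liver left out, and a pseudocount of 1 for ratios. Pool shares with curated transcript lengths were chosen after seeing the data. In a simulation of 15355 genes for untreated HCC against healthy livers, 103 genes were changed 2-fold and 97 were changed 4-fold. There, edgeR found 76.7% of the genes changed 2-fold and 95.9% of those changed 4-fold, with 10 false calls. Far more genes were called in the data for that comparison, 3569 higher and 2815 lower. The simulated shares and false calls therefore cannot be carried over to the comparisons reported here. They were also not given separately for genes with few counts, such as Cdkn2a and Cdkn2b.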

Additional observations from a re-analysis of the deposited data

How the results depend on the processing

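Depth limits Cdkn2a and Cdkn2b most, since their healthy livers hold 0 to 5 counts, and with 3 livers a group the smallest exact p of a ratio is 0.1. The 6 genes called in untreated HCC against healthy livers were 6 under each alternative other than the filter of at least 10 counts in every library (4, with 8 genes left to test) and no fold threshold (8). For miR-22-treated against untreated HCC the count of 5 became 3 with at least 10 counts in every library (where Cdkn2a and Cdkn2b were not tested), 4 without a filter, 8 with no fold threshold (1 of them higher) and 6 with DESeq2, with its size factors and with upper-quartile normalization, each of which added Ccne1. Leaving out 1 liver gave 3 to 6. Pathway genes called with DESeq2 were 85, 38 and 74 in the 3 comparisons, against 83, 30 and 76. Ccne1 without treated replicate 4, Ccne2 without untreated replicate 4 or treated replicate 2 (0.69 for both) and Cdkn2c without treated replicate 2 (-0.62) passed both thresholds. The cause of these differences was not tested.

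The replicate numbers do not pair the livers. Deviations of same-numbered untreated and treated livers correlated at -0.235 to -0.121 over genes, and those of other pairs at 0.0809 on average. With the number as a block, 6, 3 and 4 of the 10 genes were called in the 3 comparisons. The block removed Cdkn1a (adjusted p = 0.0809), Cdkn2a (0.0956) and Cdkn2b (0.0533) from the calls with miR-22 and added Ccne1 (-0.59, 0.0396). Against healthy livers it removed Ccnd1 (-0.57, 0.0369) and Ccnd2 (1.00, 0.0599). Pathway genes called with the block were 84, 27 and 64.

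The sign changed in no called gene. It changed in Cdkn1b and Ccnd3, in comparisons where their log2 fold change was near 0. For Cdkn1b in untreated HCC against healthy livers it was 0.0032 with upper-quartile normalization and 0.0022 with at least 10 counts in every library, and -0.095 to 0.015 with a liver left out. With miR-22 it was -0.035 to 0.086 with a liver left out. In miR-22-treated HCC against healthy livers it was 0.0074 with upper-quartile normalization, 0.0070 without a filter, 0.029 with at least 10 counts, 0.033 with the block and -0.079 to 0.054 with a liver left out. For Ccnd3 in that comparison it was -0.0050 with DESeq2, -0.0052 with its size factors, -0.092 with the block and -0.10 to 0.11 with a liver left out.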
